A study of Mus musculus with 68 samples.

Results

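Mouse oocytes labelled FGO, the usual abbreviation for fully grown oocytes, were compared with and without Ezhip. They make up 7 of the 68 libraries of the series and were taken by their sample labels: 3 libraries carry the genotype Ezhip KO, 2 carry Ezhip Het and 2 are wild type (WT). The Het and WT libraries served together as 4 controls, and their values are given apart. The labels name no other allele or agent for these oocytes. The sources used here do not state how the allele was made, the strain, the age of the females, how many oocytes went into a library or whether libraries came from separate animals. The p-values therefore measure the spread between these libraries, which may be technical. Lysed oocytes went directly into Smart-seq2, which copies whole transcripts from very little RNA, and every level below is in FPKM, a share of the library per gene length.

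EZHIP is a germ-line protein that binds and inhibits PRC2, the Polycomb complex that writes H3K27me3, a histone mark of silent developmental genes. Oocytes carry broad domains of this mark, and some of it reaches the embryo and silences the maternal copy of a few genes. A fully grown oocyte has almost stopped transcription, so its RNA pool is largely the store that was made during growth and that will feed maturation and the first division.

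The gene lies on the X chromosome. RefSeq gives for its promoter, in the build GRCm38.p6, the 250 bases before the transcript start on the minus strand at chrX:6083421-6083670, shown here because Ezhip was the only gene past the test. Capitals mark CCAAT, the box bound by the factor NF-Y.
Ezhip promoter: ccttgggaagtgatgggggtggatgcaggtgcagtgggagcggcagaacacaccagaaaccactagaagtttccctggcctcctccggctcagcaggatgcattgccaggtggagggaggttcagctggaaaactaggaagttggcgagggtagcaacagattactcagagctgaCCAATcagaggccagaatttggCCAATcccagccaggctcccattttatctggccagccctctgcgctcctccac
CCAAT was searched on both strands, and the 2 matches, both on the strand shown, start 75 and 53 bases before the transcript start. Of 32851 promoter windows of the same length, 33.8% hold at least 1 CCAAT on either strand and 10.1% hold at least 2. The window has 57.2% G and C, against a median of 52.4% over all windows. The Nudt and Bmp15 genes next to Ezhip are described further down.

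Ezhip RNA was at or near 0 in KO oocytes and abundant in controls. It stood at 0, 0.175 and 0.117 FPKM in the 3 KO libraries, against 143 and 84.1 in Het and 546 and 297 in WT libraries. In the 2 WT libraries it was the transcript of rank 100 and 173 among all genes. The KO mean was 0.0973 ± 0.0892 FPKM (SD, n = 3) and the control mean 268 ± 206 FPKM (SD, n = 4), a log2 difference of -7.67 on the log2(FPKM + 1) scale, which holds for every log2 difference below (SE 0.42, 95% interval -8.58 to -6.77, limma adjusted p = 2.20e-07). KO and control libraries did not overlap, and the values followed the labels.

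Het oocytes held less Ezhip RNA than WT oocytes in both library sets. Het libraries averaged 114 ± 41.8 FPKM and WT libraries 421 ± 176 FPKM (SD, n = 2 each), so the Het mean was 27.0% of the WT mean. Within the first set the Het value was 26.2% of the WT value, and within the second 28.3%. The log2 difference, Het minus WT, was -1.87 (SE 0.26, limma adjusted p = 0.00724), and Ezhip was the 1 gene of 9818 past the test in this comparison (0.0102%). The call was lost under 6 of 13 alternatives: without the set term (limma adjusted p = 1.00), with the replicate block (0.635), with a pseudocount of 0.1 (1.00), without the filter on low values (0.948), after median ratio scaling (0.999) and without WT 1 (0.919).

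Next in the order of p between the controls stood Snora15, a small nucleolar RNA, listed at 3.27 and 1.04 FPKM in Het libraries and at 0 in every KO and WT library (Het minus WT, limma adjusted p = 0.0556). The microRNA gene Mir7672 followed, at 3.84 and 1.17 FPKM in Het libraries, listed at 0 in both WT libraries, and at 1.22, 1.12 and 0 FPKM in KO libraries (Het minus WT, limma adjusted p = 0.0632). Then came Phc2, which encodes a subunit of the Polycomb complex PRC1. It was at 6.88 and 20.9 FPKM in Het, against 0.389 and 1.20 in WT oocytes (log2 difference 2.91, SE 0.55, limma adjusted p = 0.0901), and at 4.93, 7.21 and 1.07 FPKM in KO oocytes. In the first set both KO libraries were above WT 1 and lay on either side of Het 1, and in the second KO 3 was below both controls.

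**Figure D1:**
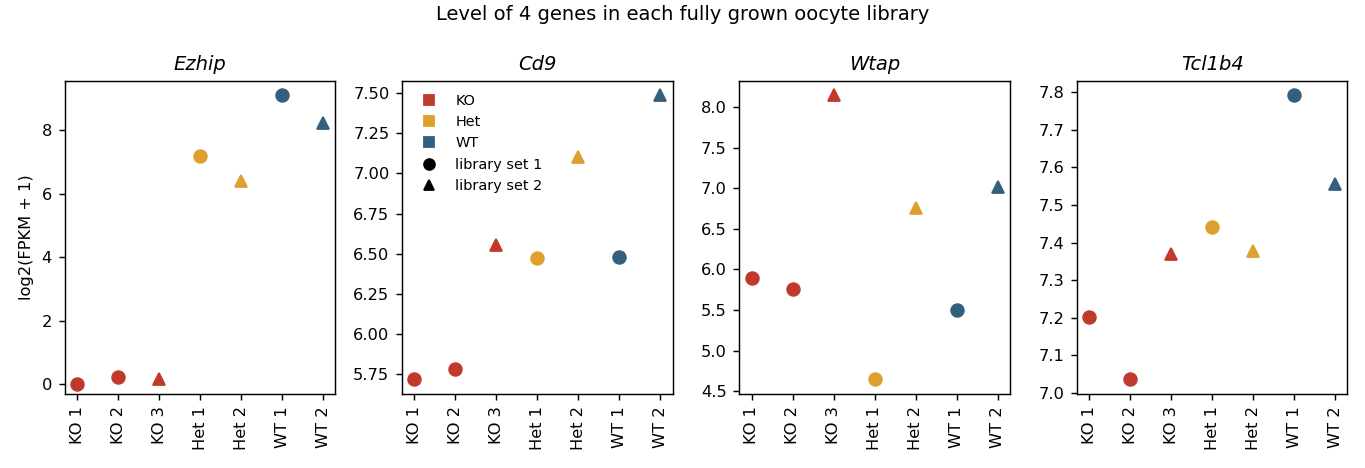
Level of Ezhip, Cd9, Wtap and Tcl1b4 in each of the 7 fully grown oocyte libraries, as log2(FPKM + 1), each panel with its own vertical range; colour gives the genotype and shape the library set. Ezhip is at or near 0 in the 3 KO libraries and lower in Het than in WT, while the other genes differ between the library sets as well as between genotypes.

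The library numbers in the labels run from 1 to 4 (WT 1, Het 1, KO 1, KO 2) and from 5 to 7 (WT 2, Het 2, KO 3), with the genotype series restarting, and the libraries fell into the same 2 sets. At 1 FPKM or more, 7316 genes were listed in KO 1, 8443 in KO 2, 7395 in Het 1 and 7364 in WT 1. The libraries of the second set had 9432 to 9801. The 12 oocyte markers summed to 13316 to 14588 FPKM in the first set and 6711 to 7598 in the second. No source says what the sets are, so the gene differences between KO and control oocytes were fitted with the set as a term. Read depth cannot be recovered from FPKM, and no counting interval is given. All 12 oocyte markers were above the filter, all 7 theca and stroma markers were below 1 FPKM in every library, and the 20 most abundant transcripts of the controls were the 20 most abundant of the KO libraries.

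**Figure D2:**
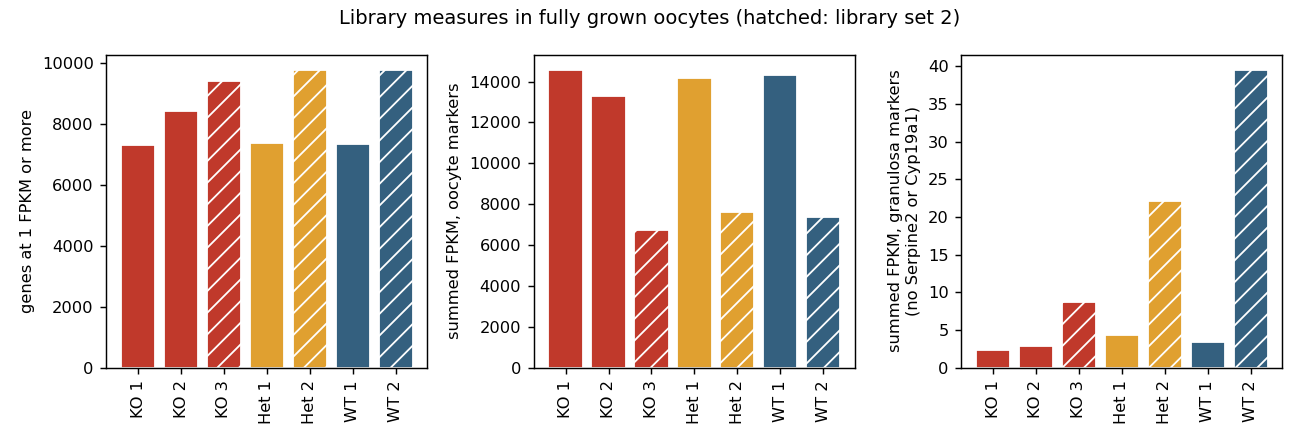
Genes at 1 FPKM or more, summed FPKM of 12 oocyte markers, and summed FPKM of 14 granulosa and cumulus markers (without Serpine2 and Cyp19a1, a choice made after seeing the data) in each library, KO, Het and WT from left to right and the second library set hatched. The sets differ in all 3 measures, and the granulosa sum is largest in WT 2 (39.6 FPKM) and Het 2 (22.2 FPKM).

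Apart from Ezhip the stored RNA of KO oocytes showed no gene past the test. Of 24056 genes, 9818 reached 1 FPKM in at least 2 libraries. Of these, 1 passed a limma adjusted p of 0.05 (0.0102%), namely Ezhip, and it was lower in KO. At an unadjusted p under 0.05 there were 531 genes (5.41%), 433 higher in KO (4.41%) and 98 lower (0.998%). After median ratio scaling the unadjusted split was 319 higher of 558, and without the set term 20 genes were at this level (0.204%), 6 of them higher (0.0611%). The log2 difference was above 0 for 67.2% of genes. Its median over all genes was 0.09, with 0.20 in the first set, -0.09 in the second and -0.29 with the replicate numbers as a block. KO 3 alone has the replicate number 3, so under that block every KO difference rests on KO 1 and KO 2. The median of all genes was -0.04 without KO 2, 0.15 without KO 1 and 0.20 without KO 3. Every count of higher and lower genes in the lists below is to be read beside that 67.2%. With WT, Het and KO as 3 groups in a fit of all 7 libraries, 1 gene passed in KO against WT, with 3.45% at an unadjusted p under 0.05. In KO against Het 3 passed (0.0306%), with 3.22% at that level.

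The precision differed with the level. The 95% interval of a gene reached a median of 0.47 to either side on the log2 scale over all genes, 0.53 for genes at 2 to 10 FPKM in controls and 0.27 for those at 50 FPKM or more. These widths are medians over genes and are not the limit of the test, which is adjusted over all genes. At a limit of 1 FPKM, 1 gene was above it in every KO and below it in every control library, the predicted gene Gm13710. On the other side were Ezhip, Hadh, which encodes a fatty acid oxidation enzyme, Cnga4, a subunit of an olfactory ion channel, and Lrrc71, the last 3 between 0.253 and 0.983 FPKM in KO and between 1.08 and 1.75 FPKM in controls. Apart from Ezhip these genes reached at most 1.93 FPKM in any library, so small differences decide their side. These were singled out after their values were seen.

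**Figure D3:**
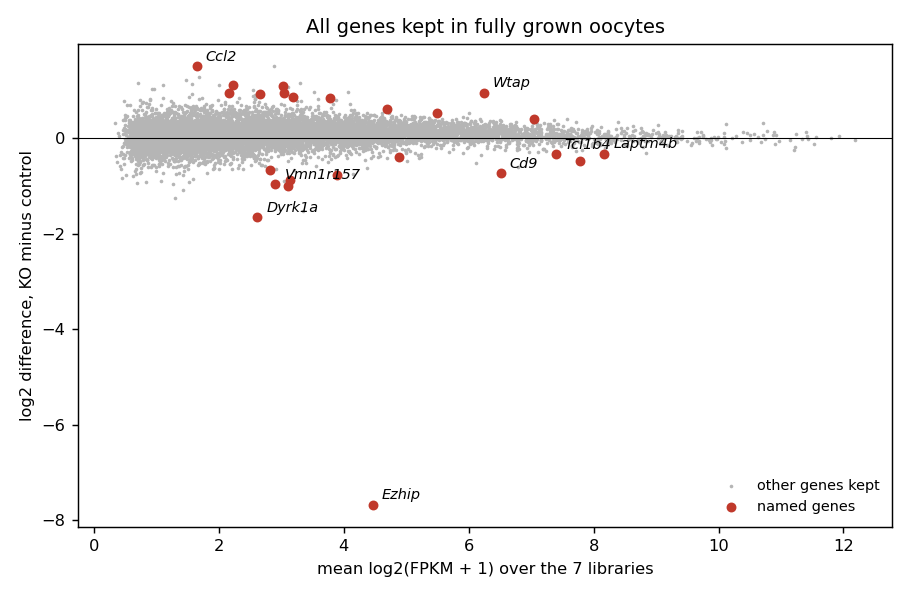
Log2 difference, KO minus control, against mean log2(FPKM + 1) over the 7 libraries for the 9818 genes kept; red points are Ezhip and 23 genes named by rule. Ezhip lies at -7.67, while the other named genes lie between -1.65 and 1.52.

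The gene with the smallest p after Ezhip was Cd9, an egg surface tetraspanin that eggs need to fuse with sperm. It stood at 51.6, 54.0 and 92.8 FPKM in KO, against 87.7 and 136 in Het and 88.3 and 178 in WT oocytes. In each library set every KO library was below both controls, although KO 3 was above the controls of the first set. The log2 difference was -0.73 (SE 0.12, 95% interval -0.999 to -0.467, unadjusted p = 3.32e-05), and it did not pass over all genes (limma adjusted p = 0.163). Without Het 2 it did (log2 difference -0.80, limma adjusted p = 0.0312). In RefSeq 2 predicted genes overlap Cd9, and whether reads were counted by strand is not given.

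Of the 11 genes named on the lower side, 3 had every KO library below every control library, which 18 of 9818 genes did (0.183%). The 2 shares do not compare, because the named genes were chosen by the same values. By definition all 18 lie among the 216 genes with KO below the controls within each set, which the rule asked for. Laptm4b, a lysosomal membrane protein, was at 254, 259 and 248 FPKM in KO, against 294 and 331 in Het and 332 and 311 in WT oocytes (log2 difference -0.32, SE 0.10, limma adjusted p = 0.912). Vmn1r157, a gene of the vomeronasal receptor family, was at 4.51, 2.67 and 5.69 FPKM in KO, against 9.27 and 6.53 in Het and 12.0 and 8.87 in WT (-0.96, SE 0.27, limma adjusted p = 0.912). Its relative Vmn1r139 was at 10.4, 5.94 and 14.8 FPKM in KO, against 11.4 and 15.8 in Het and 28.9 and 20.3 in WT. Both belong to a family with near-identical copies, between which reads could have been split. Tcl1b4, of the Tcl1 cluster, was at 146, 130 and 164 FPKM in KO, against 173 and 165 in Het and 221 and 187 in WT (-0.34, SE 0.13, limma adjusted p = 0.912).

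Other genes named on the lower side act in signalling, RNA storage and metabolism. Dyrk1a, a protein kinase, was at 0.987, 1.15 and 4.01 FPKM in KO, against 7.70 and 25.6 in Het and 1.24 and 28.6 in WT (log2 difference -1.65, SE 0.40, limma adjusted p = 0.737). WT 1 stood with the KO libraries, and without WT 1 the difference was -2.28 and passed (limma adjusted p = 0.00219). Dazl, a germ cell RNA-binding protein that activates translation of stored messages, was at 251, 160 and 170 FPKM in KO, against 300 and 180 in Het and 353 and 192 in WT (-0.47, SE 0.16, limma adjusted p = 0.912). Its difference was -0.69 in the first set and -0.13 in the second. Efna1 (an ephrin ligand), Pgp (a phosphoglycolate phosphatase) and Gstp1 (a glutathione transferase) had log2 differences of -0.87, -0.67 and -0.39. The small nucleolar RNA Snora47 was at 1.24, 1.34 and 20.8 FPKM in KO, against 3.15 and 30.0 in Het and 7.70 and 26.4 in WT, and it lies inside Zbed3, one of the most abundant oocyte transcripts, so reads of the host cannot be told apart from its own.

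On the higher side Wtap came first, a subunit of the enzyme complex that writes N6-methyladenosine on RNA. It stood at 58.4, 52.9 and 283 FPKM in KO, against 24.0 and 107 in Het and 44.3 and 128 in WT oocytes. KO exceeded both controls within each set, and KO 3 was the highest of all 7 libraries. The log2 difference was 0.95 (SE 0.19, 95% interval 0.56 to 1.35, limma adjusted p = 0.431). With WT, Het and KO as 3 groups in a fit of all 7 libraries, it passed against Het (1.23, limma adjusted p = 0.00818) but not against WT (0.68, limma adjusted p = 0.765). It also passed against the pooled controls without WT 1 (1.22, limma adjusted p = 0.00198). Without the set term the difference was 0.62, and with the replicate block its direction turned, to -0.16.

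None of the 12 genes named on the higher side had every KO library above every control library, which 17 of 9818 genes did (0.173%). Within each library set KO libraries were above controls for 996 genes (10.1%) and below them for 216 (2.2%), and the rule for named genes asked for this. Ccl2, a chemokine, had the largest difference of these 12, at 0.674, 2.25 and 20.2 FPKM in KO, against 0 and 5.11 in Het and 0.363 and 2.06 in WT (1.52, SE 0.34, limma adjusted p = 0.737), with most of its KO level in KO 3. Membrane traffic genes were Rab27a (1.12), a GTPase of secretory vesicles, Ift20 (0.84), a carrier subunit of intraflagellar transport, and Gabarapl2 (0.61), of the autophagy machinery. Rad54b, a DNA helicase of homologous recombination, was at 6.99, 8.48 and 15.3 FPKM in KO, against 2.21 and 12.6 in Het and 2.01 and 14.8 in WT (0.95). Its difference was 1.49 in the first set and 0.15 in the second, and RefSeq places 3 genes over it. The others were Prl8a2 (1.10), of the prolactin family, Cpb1 (0.95), a carboxypeptidase, Calb1 (0.93), a calcium-binding protein, Rrh (0.87), an opsin, Angel2 (0.53), an RNA phosphatase, and Tmem97 (0.40), a sterol-related membrane protein. Ift20 and Tmem97 lie within 3 genes of each other in RefSeq.

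**Figure D4:**
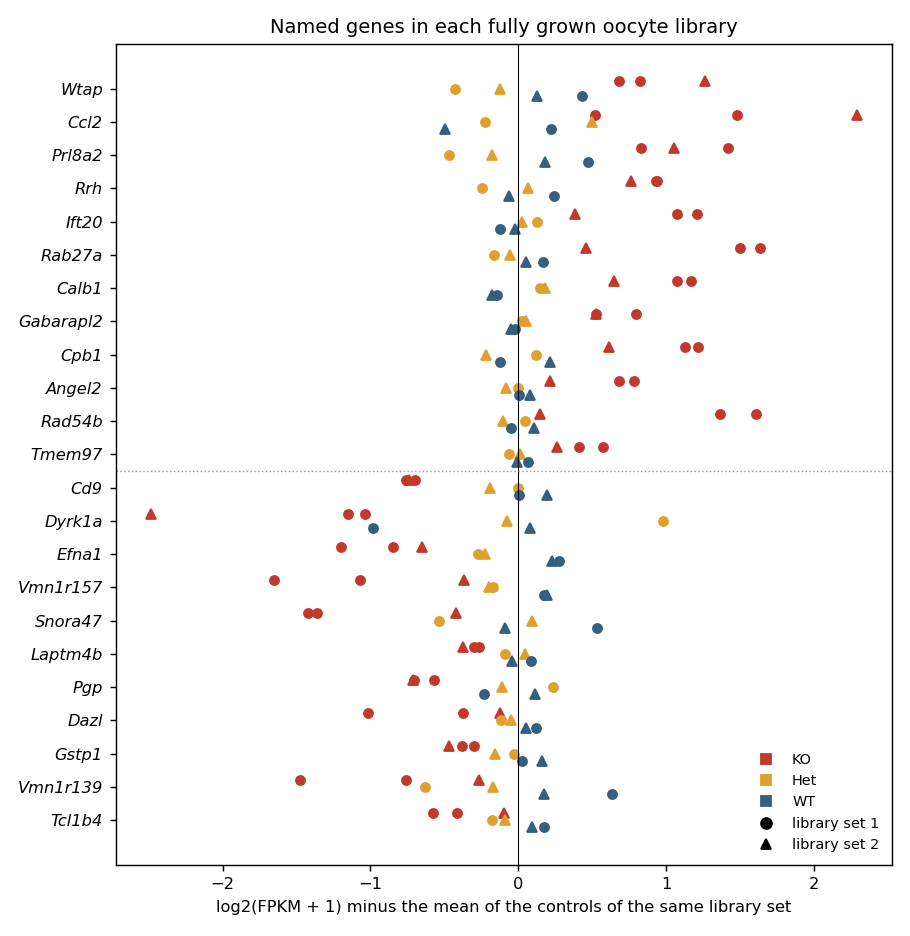
The 23 named genes other than Ezhip, with log2(FPKM + 1) of each library minus the mean of the controls of the same library set; genes above the dotted line were named on the higher side and those below it on the lower side. By the rule, KO points lie beyond the control points of the same shape, and for Dyrk1a WT 1 lies close to the KO libraries.

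The complex that EZHIP inhibits was expressed in all oocytes, and none of its genes passed the test. All 6 core PRC2 genes were kept, 5 with a higher and 1 with a lower KO level, with a median log2 difference of 0.16 beside 0.09 for all genes. That median was 0.25 in the first set, -0.01 in the second, 0.05 after median ratio scaling, -0.00066 without KO 2 and -0.09 with the replicate block. Ezh2, the main catalytic subunit, was at 67.9, 93.0 and 93.9 FPKM in KO, against 66.6 and 101 in Het and 64.6 and 93.2 in WT (log2 difference 0.14, 95% interval -0.15 to 0.44). Ezh1, the other catalytic subunit, was at 4.31 to 9.28 FPKM in KO and 3.70 to 10.9 FPKM in controls (0.21, interval -0.30 to 0.72). Eed, which reads the mark, was at 34.2, 41.2 and 93.3 FPKM in KO, against 27.6 and 87.4 in Het and 37.4 and 88.5 in WT (0.16, interval -0.14 to 0.47). The values of Ezh2, Ezh1 and Eed overlapped between KO and control libraries.

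Suz12, the scaffold of the complex, was at 9.57, 14.5 and 33.3 FPKM in KO, against 10.8 and 32.7 in Het and 13.8 and 32.8 in WT (-0.02, interval -0.40 to 0.37). The histone binders Rbbp7 (647 to 870 FPKM in KO, 590 to 684 FPKM in controls) and Rbbp4 (6.10 to 12.4 in KO, 6.58 to 8.56 in controls) had differences of 0.16 and 0.20. Accessory subunits, which steer PRC2 to its sites, were 7 kept, all with a higher KO level and differences from 0.04 for Jarid2 to 0.26 for Phf19, and 0 passed. Their median was 0.20, with 0.28 in the first set, -0.08 in the second, 0.03 without KO 2 and -0.04 with the replicate block. Below the filter was 1 more member. The 16 PRC1 genes kept had a median of -0.04, from -0.39 for Pcgf5 to 0.43 for Pcgf3, with 6 higher and 10 lower, and the median ran from -0.27 to 0.14 over the alternatives.

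Enzymes of neighbouring marks did not pass either. H3K27 demethylases and H3K36 methyltransferases, which remove the mark or lay one that opposes it, had a median of 0.02 over 7 genes. The demethylase Kdm6b was at 6.80, 6.96 and 26.3 FPKM in KO, against 6.40 and 25.9 in Het and 6.92 and 27.6 in WT, values that differ between the library sets more than between genotypes. DNA methylation genes had a median of -0.07 over 9 genes. Dppa3, which protects the maternal genome from demethylation after fertilisation, was at 3401, 2822 and 2582 FPKM in KO, against 2941 and 1967 in Het and 3115 and 2270 in WT, and the groups overlapped. Of 10 H3K9 methylation genes 1 reached an unadjusted p under 0.05, the methyltransferase Suv39h1, at 22.6, 22.6 and 34.4 FPKM in KO, against 17.3 and 26.9 in Het and 17.3 and 29.0 in WT (0.34, unadjusted p = 0.0369, limma adjusted p = 0.912). KO 3 was above all controls and KO 1 and KO 2 were above those of their own set.

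Genes that the mark is known to silence were almost all near 0 in every genotype. The 6 genes imprinted through oocyte H3K27me3 were at most at 0.189 FPKM in any library, KO or control, and none was kept. Of 50 developmental regulators, typical Polycomb targets such as the Hox, Pax and Sox genes, 46 were below the filter with at most 0.913 FPKM, and 11 of these were listed at 0 in every library. The 4 kept were Meis2, Gata3, Prdm1 and Gata4, with differences from 0.07 to 0.41, 0 past the test and a median of 0.25 that was -0.05 in the second set. Meis2, a homeobox factor, was at 104, 103 and 101 FPKM in KO, against 84.7 and 103 in Het and 81.1 and 87.5 in WT (0.23, 95% interval -0.03 to 0.48). Polycomb target lists come from other cell types, and no H3K27me3 data were used here.

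No gene that defines the oocyte passed the test. Zona pellucida and secreted factors had 8 of 10 genes lower in KO and a median of -0.07, which was 0.05 without the set term and 0.36 with the replicate block. Bmp15, a growth factor by which the oocyte steers its granulosa cells, was at 1339, 1225 and 753 FPKM in KO, against 1428 and 868 in Het and 1533 and 867 in WT (log2 difference -0.21, 95% interval -0.39 to -0.03, limma adjusted p = 0.912). In each set both controls were above every KO library. Its partner Gdf9 was at 3349, 3554 and 1202 FPKM in KO, against 3791 and 1595 in Het and 3389 and 1543 in WT (-0.19, unadjusted p = 0.0599). Fgf8, another oocyte-secreted factor, was at 40.6, 36.8 and 53.2 FPKM in KO, against 41.4 and 78.1 in Het and 47.1 and 67.8 in WT (-0.29, unadjusted p = 0.0491).

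The 8 oocyte transcription factors kept had a median of -0.11, with Figla, which switches on the zona genes, at 9.45, 14.9 and 36.4 FPKM in KO, against 15.7 and 34.5 in Het and 21.4 and 44.0 in WT (-0.39, unadjusted p = 0.0681). The subcortical maternal complex, a protein lattice that eggs need for cleavage, had a median of -0.02 over 9 genes, from -0.12 for Zbed3 to 0.26 for Nlrp2. The 17 maternal-effect genes had a median of 0.04. Over the alternatives these medians ran from -0.30 to 0.02, from -0.13 to 0.25 and from -0.15 to 0.13, in the order given. In the Tcl1 cluster of chromosome 12, Tcl1 was at 2098, 1677 and 1943 FPKM in KO, against 1718 and 1521 in Het and 1280 and 1646 in WT (0.32, unadjusted p = 0.0114), opposite in sign to Tcl1b4, and the other 4 genes were between -0.05 and 0.05. Growth factor receptors and gap junction genes had a median of -0.07 over 9 genes.

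**Figure D5:**
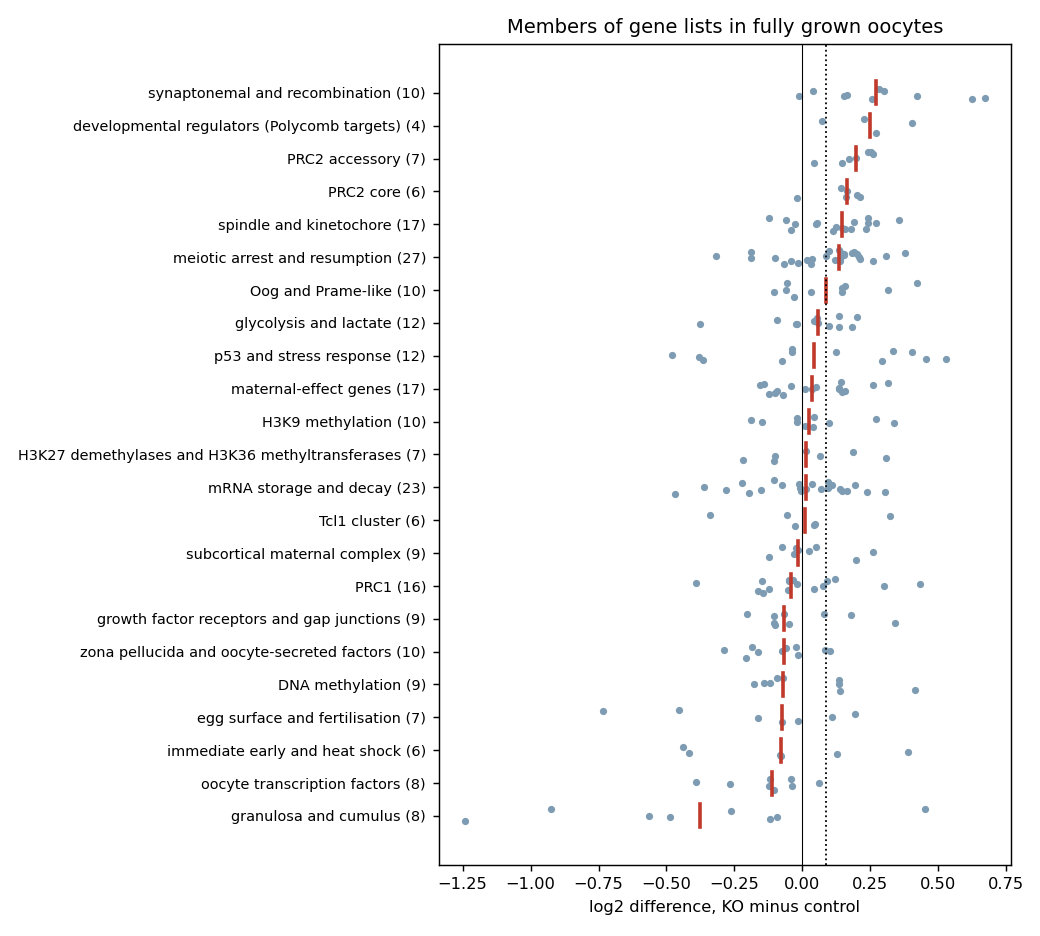
Log2 difference, KO minus control, of the kept members of each gene list shown, those with at least 4 genes kept (number kept in brackets), with the list median in red and the median of all genes as a dotted line. The medians of these lists lie between -0.38 (granulosa and cumulus) and 0.27 (synaptonemal and recombination).

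Counts for stored RNA regulators stand beside 67.2% of all genes higher in KO and a median of 0.09. Of 23 mRNA storage and decay genes 12 were higher and 11 lower, with a median of 0.01. Cnot7, a deadenylase that shortens poly(A) tails, was at 165, 153 and 248 FPKM in KO, against 124 and 185 in Het and 141 and 201 in WT (0.30, unadjusted p = 0.0123, limma adjusted p = 0.912), with KO above the controls of each set. Meiotic arrest and resumption genes, which hold the oocyte at prophase and release it, had 20 of 27 higher and a median of 0.14, which was 0.03 after median ratio scaling and -0.13 with the replicate block. Spindle and kinetochore genes had 13 of 17 higher and a median of 0.15, which was -0.06 without the set term and -0.33 with the replicate block. Their Spc25, a subunit of the kinetochore complex that holds microtubules, was at 52.1, 53.5 and 125 FPKM in KO, against 43.0 and 90.5 in Het and 47.1 and 107 in WT (0.27, unadjusted p = 0.0454).

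Synaptonemal and recombination genes, made in fetal meiosis and kept at low levels later, had the highest median of the lists with at least 4 genes kept. Of 10 kept, 9 were higher in KO and 1 was lower, with a median of 0.27 that was 0.28 in the first set, 0.11 in the second, 0.20 after median ratio scaling, 0.07 without the set term and -0.23 with the replicate block, and 0 passed the test. Dmc1, the meiotic strand exchange enzyme, was at 1.57, 1.99 and 3.19 FPKM in KO, against 0.498 and 2.38 in Het and 0.549 and 2.05 in WT (0.67, unadjusted p = 0.0080). Sycp1, the transverse filament of the synaptonemal complex, was at 1.65, 2.47 and 6.05 FPKM in KO, against 1.14 and 3.05 in Het and 0.924 and 3.68 in WT (0.63, unadjusted p = 0.0163). For both genes KO was above the controls of each set. Sycp3, the lateral element protein, was at 2.83 to 8.32 FPKM in KO and 2.47 to 9.45 FPKM in controls (0.04).

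Genes of the 2-cell stage, when the embryo's genome is first transcribed at scale, were mostly near 0. Of 11 listed, Zscan4c and Zscan4d were kept. Zscan4d was at 1.27, 1.79 and 6.09 FPKM in KO, against 1.05 and 2.68 in Het and 0.469 and 3.99 in WT (0.61, unadjusted p = 0.0230). Zscan4c was at 0.762, 0.622 and 1.83 FPKM in KO, against 0.397 and 0.971 in Het and 0.0754 and 1.36 in WT (0.43, unadjusted p = 0.0374). The 2 genes are near-identical copies, so they count as 1 observation at most.

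Metabolic and housekeeping groups had medians of 0.03 for 79 cytosolic ribosomal proteins, 0.10 for 91 respiratory chain subunits, 0.09 for 34 proteasome subunits and 0.06 for 12 glycolysis genes, beside 0.09 for all genes, and all 4 were below 0 with the replicate block, from -0.33 to -0.15. The 329 X-linked genes kept had a median of 0.09, and 213 of them were higher, beside 67.2% of all genes. Among p53 and stress genes 6 were higher and 6 lower, and Gadd45a, a stress-induced growth arrest gene, was at 1.18, 1.03 and 2.54 FPKM in KO, against 0.622 and 2.22 in Het and 0 and 1.80 in WT (0.53, unadjusted p = 0.0365).

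Markers of granulosa and cumulus cells, the somatic cells that surround the oocyte, had a lower sum in every KO library than in the controls of the same set, and 0 of them passed the test. Most of that sum was Serpine2, and whether its RNA came from these cells was not tested. In bulk RNA, fewer such cells and less RNA per cell cannot be told apart. Of 16 markers 8 were kept, 7 lower and 1 higher (0.45), with a median of -0.38, which over these 8 genes was 0.01 in the first set and -0.62 in the second. With the filter applied to the first set alone, which keeps fewer genes, the median there was -0.26. Over all libraries it was -0.12 without the filter on low values and -0.09 with the filter at 5 FPKM. Inha, the inhibin alpha chain, was at 0.659, 0.114 and 2.44 FPKM in KO, against 2.16 and 3.58 in Het and 1.42 and 6.54 in WT (-0.92, unadjusted p = 0.00293, limma adjusted p = 0.912). Hsd3b1, a steroid-making enzyme, was at 0.319, 0.0386 and 0.576 FPKM in KO, against 0.128 and 8.85 in Het and 0.177 and 18.6 in WT, and Lhcgr, the luteinising hormone receptor, was above 1 FPKM in Het 2 (1.37) and WT 2 (1.49) and in no KO library. Hsd3b1 and Lhcgr passed the filter only through control libraries, so their place on the lower side follows from the filter and gives no support. Amh, Ptx3 and Tnfaip6 were at 0 in all libraries. Fshr, a marker below the filter, went the other way, with every KO library above the controls of the same set. It was at 0.366, 0.124 and 1.23 FPKM in KO, against 0 and 0.601 in Het and 0 and 0.801 in WT.

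Summed over the list, these markers stood at 84.6, 85.7 and 161 FPKM in KO, against 91.7 and 166 in Het and 92.4 and 190 in WT, most of it Serpine2 at 74.1 to 137 FPKM. Within each set every KO library was below both controls. The mean log2 of the sum was 6.73 in KO and 7.01 in control libraries (difference -0.28, exact permutation test, two-sided p = 0.286, n = 3 and 4, where the smallest possible p is 0.057), a comparison that ignores the sets. With the set as a term the difference was -0.12, with -0.11 in the first set and -0.14 in the second (exact permutation within sets, two-sided p = 0.111, where 18 arrangements allow no p under 0.056). Without Serpine2 and Cyp19a1 the sum was 2.39, 2.81 and 8.77 FPKM in KO, against 4.36 and 22.2 in Het and 3.41 and 39.6 in WT, a difference of -0.92 with the set as a term, -0.43 in the first set and -1.65 in the second (exact permutation within sets, two-sided p = 0.056, the smallest these arrangements can give). The permutation within sets and the removal of Serpine2 and Cyp19a1 were both chosen after seeing the data. The p of 0.056 from this exact permutation is therefore a description and gives no support. KO was below the controls within each set for 216 of 9818 genes (2.2%), Cd9, Dyrk1a and Efna1 among them. The part of these cells in such differences was not tested.

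The genes beside Ezhip on the X chromosome were looked at because a deletion can touch them. Among genes with a value in these libraries, Nudt11 and Nudt10, which encode inositol phosphate phosphatases, flank Ezhip in RefSeq order, and Bmp15 follows Nudt10. RefSeq also places the predicted gene Gm26618 over Ezhip. Nudt10 was listed at 0 in all 3 KO libraries, against 0.161 and 0.333 FPKM in Het and 0.308 and 0.488 in WT. Of all 24056 genes, 18 (0.0748%) were listed at 0 in every KO library and above 0 in every control library, with values under 0.001 FPKM counted as 0, and among these Nudt10 had the highest control mean, 0.322 FPKM. For 6 genes the reverse held. Nudt11 was listed at 0 in all KO libraries and in Het 1, and at 0.0384 to 0.147 FPKM in the other 3 controls. Both genes were below the filter, so neither was tested, and at these levels a few reads decide the value. Bmp15, whose levels are given above, was lower in KO within each set (log2 difference -0.21, 95% interval -0.39 to -0.03, limma adjusted p = 0.912). Whether the deletion plays a part in this was not tested. Shroom4, a cytoskeletal regulator beyond Bmp15, was at 1.45 to 2.60 FPKM in KO and 1.39 to 2.52 FPKM in controls (0.05, 95% interval -0.44 to 0.55).

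The same genes were read in 1-cell embryos labelled PN5, 2 libraries each of mKO, mHet and WT in a table of its own, to see whether a difference in oocytes was also there in other samples. Ezhip was the 1 gene of 8604 past the test there (0.0116%; log2 difference -7.38, SE 0.30, limma adjusted p = 7.36e-06), and without the filter on low values it did not pass (limma adjusted p = 0.0798). Of the 23 other named genes 20 were kept, and 14 had the same sign in both stages. Over all 8227 genes kept in both tables, 4052 had the same sign (49.3%), and of the 8604 genes kept in PN5 37.5% had a difference above 0. On the lower side 8 of 11 genes were also lower in mKO embryos, and on the higher side 6 of 9 were also higher.

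An unadjusted p under 0.05 was reached in PN5 by 4 of the 20 genes, beside 11.1% of all genes. Cd9 was at 15.4 and 27.8 FPKM in mKO embryos, against 25.6 and 33.3 in mHet and 31.7 and 28.6 in WT (log2 difference -0.50, SE 0.17, unadjusted p = 0.0177, limma adjusted p = 0.360). Vmn1r157 was at 2.18 and 7.21 FPKM in mKO, against 6.29 and 10.2 in mHet and 5.30 and 12.5 in WT (-0.84, SE 0.18, unadjusted p = 0.000888, limma adjusted p = 0.293). Tcl1b4 was at 306 and 322 FPKM in mKO, against 389 and 363 in mHet and 344 and 403 in WT (-0.25, SE 0.10, unadjusted p = 0.0320, limma adjusted p = 0.416). The mKO and control values of Cd9 and Vmn1r157 overlapped and those of Tcl1b4 did not. How many of all genes in PN5 show no overlap was not counted, so nothing is read from this. Rab27a had the opposite sign, at 5.49 and 8.87 FPKM in mKO, against 10.8 and 8.28 in mHet and 8.99 and 13.1 in WT (-0.48). Wtap was at 386 and 294 FPKM in mKO, against 402 and 259 in mHet and 225 and 173 in WT (0.42, unadjusted p = 0.0934).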

How the data were processed

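Values are FPKM per gene and library as the authors deposited them, 1 table per stage. HTSeq 0.6.0, HISAT2 2.2.1 and Trim Galore 0.4.2 appear in the submitters' processing notes, which name mm9 and hg19 with no role for either build. How FPKM was computed, from which annotation, and whether by strand or with multi-mapping reads, those sources and the labels do not state. The oocyte and PN5 tables were analysed separately. In the oocyte table no step worth 1 read was found (the commonest ratio of low values covered at most 2.31% of genes), so depth is unknown.

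A gene was kept if 2 or more libraries reached 1 FPKM. In R 4.3.3, limma 3.58.1 fitted log2(FPKM + 1) by lmFit and eBayes with a trend. A log2 difference on this scale understates that of low genes. KO was set against pooled Het and WT with the library set as a term. Het against WT, KO against WT and KO against Het were read from a fit of all 7 libraries as 3 groups with the same term. PN5 mKO was set against mHet and WT with the replicate number as a block. The p-values are two-sided, adjusted by Benjamini and Hochberg over all genes kept, threshold 0.05. The fit was run on simulated data with independent noise as a check of the code. The pass condition covered only the largest planted differences, so it says nothing about smaller ones or about false calls. The granulosa sum was tested by exact permutation, over all libraries and within sets, with scipy 1.17.1 in Python 3.11.15.

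The labels' replicate numbers do not pair the oocyte libraries: deviations of same-numbered WT and KO libraries correlated at 0.588 for number 1 and -0.332 for number 2, while libraries of the same set correlated at 0.331 to 0.710. PN5 replicate numbers were used as a block without such a check.

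Named were Ezhip (AU022751 in the files) and up to 12 genes per direction, those past the threshold first and then by smallest p, with a mean of at least 5 FPKM in KO or controls, KO beyond the controls of each set, and no predicted or clone-named models; 1 gene that met this rule is not reported here. Lists of up to 12 kept genes may be given in full and longer ones by up to 4 genes. Members, lists and tests were chosen with earlier results of these data known, so list counts and medians are descriptions. Chromosomes and neighbours are from RefSeq GRCm38.p6, which gave a chromosome to 9787 of 9818 genes. Genes of other stages and the human table are not used here.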

Additional observations from a re-analysis of the deposited data

How the results depend on the processing

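The fall of Ezhip in KO oocytes kept its direction under all 16 alternatives, from -10.2 with a pseudocount of 0.1 to -6.74 against Het in the 3-group fit, and from -8.07 to -7.11 with 1 library left out. Without the filter on low values it was -7.67 and did not pass (limma adjusted p = 0.452), and 0 genes were called; the cause was not tested. Genes called numbered 3 against Het in the 3-group fit (Ezhip, Wtap, Snora15), 14 in the first library set alone, and 1 to 3 with a library left out: Wtap and Dyrk1a joined without WT 1, Cd9 without Het 2, Scap without KO 2, and Fam214a and Gm12238 without KO 3. The difference of Ezhip between Het and WT lay between -2.15 and -1.58 when 1 library was dropped. It did not pass with the replicate block (-1.87, limma adjusted p = 0.635), without the library set term (-1.87), with the pseudocount (-1.87), without the filter (-1.87), after median ratio scaling (-1.89) or without WT 1 (-1.58, limma adjusted p = 0.919). Genes called between Het and WT numbered 0 without the set term, with the pseudocount, without the filter and after scaling, and 1 to 12 with a library left out, 12 without Het 2, 8 without KO 1, 7 without WT 2, and 6 without Het 1 or KO 3.

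With the replicate block, which sets KO 2 of the first set beside the second, 1 gene was called between KO and controls, Ezhip, and 1 between Het and WT, Phc2. KO 3 has a replicate number of its own, so under this block the KO differences rest on KO 1 and KO 2. This block turned Wtap (-0.16), Bmp15 (0.18), Gdf9 (0.54), Zscan4d (-0.12), Cnot7 (-0.0058), Spc25 (-0.33), Ezh2 (-0.0071), Eed (-0.49) and Ezh1 (-0.18). Without the set term Gdf9 (0.034) and Eed (-0.064) turned, and against Het in the 3-group fit Suz12 (0.064). With 1 library left out, Suz12 ran from -0.15 to 0.13, Ezh2 from -0.00045 to 0.27, Ezh1 from -0.014 to 0.48, Rbbp4 from -0.00088 to 0.51 and Hsd3b1 from -1.64 to 0.023. In PN5 the ranges that crossed 0 with 1 library left out were Angel2 from -0.082 to 0.095, Snora47 from -0.27 to 1.32, Efna1 from -0.48 to 0.69, Dyrk1a from -0.074 to 0.80, Pgp from -0.98 to 0.26, Gstp1 from -0.91 to 0.12, Vmn1r139 from -0.72 to 0.19, Rrh from -0.13 to 0.70 and Rad54b from -0.48 to 0.023. Of 718 alternative values of 46 oocyte genes 696 kept direction and side of the threshold. None of these genes passed in the main fit. For the 23 named by rule, KO lay beyond the controls of each set, so leaving out a library could not turn their direction. The count is thus partly fixed by that rule and is no measure of stability. Of 416 list medians 49 moved by more than the spread between libraries. The granulosa sum, whose alternatives were chosen after seeing the data, stayed lower in KO, between -0.58 and -0.09 when 1 library was dropped, at -0.12 with the library set as a term, and without Serpine2 and Cyp19a1 at -1.28, or -0.92 with that term. With 3 KO and 4 control libraries of unknown depth, single differences are known no better than their intervals.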
